A study of Mus musculus with 7 samples.

Results

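A set of 9 genes known for their expression in microglia and macrophages was followed in mouse brain sections measured with Xenium, an imaging method that counts transcripts of chosen genes in place and credits them to outlined cells. They were chosen by name as 9 rows of a table of 297 genes: the surface receptors Siglech, Trem2 and Cd300c2, the tetraspanin Cd53, the lysosomal membrane proteins Laptm5 and Cd68, the transcription factors Spi1 and Ikzf1, and the adaptor Sla. The table covered 384076 cells with 146504697 transcripts from 7 fresh-frozen coronal hemisections of brain, each 10 µm thick, from wild-type (WT) mice whose strain, age and sex the labels do not give. The sections lay at the anterior position (bregma -0.58 mm, 2 sections, replicates 1 and 2), the intermediate position (bregma -0.70 to -0.82 mm, 2 sections, replicates 1 and 2) and the posterior position (bregma -0.94 mm, 3 sections, replicates 1, 3 and 4). All carried the same genotype and no treatment is named, so the comparisons were between groups of cells within a section and between positions. Replicates 1 and 2 shared 1 slide, and posterior replicates 3 and 4 lay on another. The labels do not say which sections came from separate mice, so p-values refer only to the spread among these sections, part or all of which may be technical. The study's title names the anterior thalamic nuclei, and coronal hemisections at these levels also hold cortex, striatum, white matter and meninges.

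Microglia are the resident phagocytes of the brain, and related macrophages line its vessels and meninges. PU.1, the protein of Spi1, is the transcription factor on which both lineages depend, and it binds purine-rich sites with a GAGGAA core. Siglech encodes a receptor of the Siglec family that is known to be more abundant in microglia than in the macrophages at the borders of the brain. TREM2 is a lipid-sensing receptor of microglia that signals through the adaptor DAP12, and CD300C2 is a receptor of the CD300 family on myeloid cells. CD53 is a tetraspanin of leukocytes, LAPTM5 a lysosomal protein of blood cells, and CD68 (macrosialin) a glycoprotein of late endosomes and lysosomes. Ikaros, encoded by Ikzf1, is best known as a zinc-finger factor of lymphocyte development, and SLAP, encoded by Sla, is an adaptor that lowers antigen receptor signalling in lymphocytes.

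The genes lie on 7 mouse chromosomes in the RefSeq annotation of GRCm38.p6, which paired all 9 symbols with a gene. Siglech spans chr7:55768154-55779448, Trem2 chr17:48346401-48352276, Cd53 chr3:106758861-106790149, Laptm5 chr4:130912890-130936148 and Spi1 chr2:91082374-91115759. Cd68 (chr11:69664213-69666170), Ikzf1 (chr11:11684962-11772930) and Cd300c2 (chr11:114996721-115004261) share chromosome 11, and Sla spans chr15:66780819-66831829. RefSeq promoters, taken as 250 bases before to 50 bases after the transcription start, were matched for 7 of the 9 genes. The promoters of the receptors Siglech, Trem2 and Cd300c2 and of Cd53 are shown as examples, and GAGGAA, or its reverse complement TTCCTC, occurs in each. In the comparison of cells below, Siglech and Cd53 helped to choose the cells, and Trem2 and Cd300c2 were tested. Laptm5 and Cd68 also held the motif, and their promoters are not shown. The capitals mark that motif, searched on both strands, and each sequence runs 5′ to 3′ on the strand of its gene. Their coordinates are chr7:55767934-55768233 (plus strand) for Siglech, chr17:48346151-48346450 (plus strand) for Trem2, chr3:106790100-106790399 (minus strand) for Cd53 and chr11:115001831-115002130 (minus strand) for Cd300c2.
Siglech: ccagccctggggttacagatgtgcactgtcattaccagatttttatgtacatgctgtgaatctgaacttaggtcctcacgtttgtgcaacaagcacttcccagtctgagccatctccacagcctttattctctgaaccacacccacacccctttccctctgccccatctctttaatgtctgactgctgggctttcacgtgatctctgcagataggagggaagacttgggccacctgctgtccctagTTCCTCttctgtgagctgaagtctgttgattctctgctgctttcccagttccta
Trem2: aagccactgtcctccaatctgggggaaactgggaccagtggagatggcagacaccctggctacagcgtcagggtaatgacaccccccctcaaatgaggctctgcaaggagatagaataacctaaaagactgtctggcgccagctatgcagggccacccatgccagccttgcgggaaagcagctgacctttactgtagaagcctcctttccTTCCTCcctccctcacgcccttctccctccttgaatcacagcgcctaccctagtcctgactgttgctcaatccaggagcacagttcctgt
Cd53: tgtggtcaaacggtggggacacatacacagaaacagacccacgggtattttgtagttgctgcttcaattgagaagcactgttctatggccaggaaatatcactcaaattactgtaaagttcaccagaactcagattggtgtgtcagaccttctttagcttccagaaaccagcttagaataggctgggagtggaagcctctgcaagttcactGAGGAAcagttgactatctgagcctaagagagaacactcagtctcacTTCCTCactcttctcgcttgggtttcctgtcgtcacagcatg
Cd300c2: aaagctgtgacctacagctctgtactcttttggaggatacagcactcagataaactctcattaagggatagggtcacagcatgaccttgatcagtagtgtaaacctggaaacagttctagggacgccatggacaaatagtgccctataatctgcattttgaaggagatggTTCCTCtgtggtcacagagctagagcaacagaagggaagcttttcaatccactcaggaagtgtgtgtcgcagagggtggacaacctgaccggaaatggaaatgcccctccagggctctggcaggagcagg
GAGGAA on either strand was found in 6 of the 7 genes with a promoter, all but Ikzf1, for which 2 promoters were listed. Among all 32851 promoters of the same length, 28.3% held it. The first base of the match lay 4 bases before the start site in Siglech, 40 before it in Trem2, 39 before and 9 after it in Cd53, 38 before it in Laptm5, and 80 before it in Cd300c2. In Cd68 the matches began 225 bases before and 30 after the start. The longer form AGAGGAAGT, which contains GAGGAA, was found in 0 of the 7 genes and in 1.005% of all promoters. A match is a string of letters and not a measured binding site.

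Cells of interest were those with at least 3 transcripts of Laptm5 and Cd53 together, called gated cells here. They numbered 49967, or 13.0% of all cells, and made up between 11.8% and 14.4% of the cells of a section. At the threshold, 14440 gated cells held exactly 3 such transcripts, and 26830 ungated cells held exactly 2. Sections held 50169 to 60720 cells and 17438577 to 23432215 transcripts, with medians of 278 to 390 transcripts per cell, and 8 barcode names were used in more than 1 section and were kept apart by section. Control probes, which match no transcript, gave 0.807 counts per gated cell in all, against 0.248 in cells gated on Slc17a7 and 2.11 in cells gated on oligodendrocyte genes. The median gated cell held 368 transcripts of all genes. A second gate that used neither gene, at least 3 transcripts of Siglech, Trem2 and Spi1 together, took 53616 cells and shared 34258 of them with the first, 68.6% of the first and 63.9% of the second.

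The gated cells were rich in all 9 genes, as the gate itself required for Laptm5 and Cd53. Mean levels over the 7 sections were 4.25 ± 0.22 transcripts per gated cell for Siglech, 3.66 ± 0.22 for Trem2 and 1.26 ± 0.056 for Cd300c2 (SD, n = 7 sections). Cd68 averaged 2.0 ± 0.14, Ikzf1 0.987 ± 0.073, Spi1 0.894 ± 0.057 and Sla 0.408 ± 0.020 transcripts per cell. Laptm5 stood at 4.97 ± 0.21 and Cd53 at 2.67 ± 0.11. These levels follow the probes designed for each gene as well as its RNA, and the order of the genes was therefore not compared. As a share of all transcripts, the level in gated cells over that in all other cells was 24.4-fold for Cd53, 18.1-fold for Laptm5, 15.1-fold for Cd300c2, 14.7-fold for Trem2, 14.1-fold for Siglech, 13.996-fold for Spi1 and 11.9-fold for Ikzf1. It was 7.64-fold for Cd68 and 4.47-fold for Sla. Among the other genes the ratio reached 3.05 for Ebf3, a transcription factor, 2.55 for Kctd12, 2.04 for Arhgap25, a GTPase-activating protein of leukocytes, and 2.01 for Aldh1a2, so all 9 genes stood above every other gene with at least 0.05 transcripts per gated cell, as a description of cells that 2 of them chose.

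The genes also rose with the gate sum below and above its threshold. Trem2 had 0.133 transcripts per cell in cells with no Laptm5 or Cd53 transcript, 0.382 at a sum of 1, 0.696 at 2 and 1.06 at 3, and 13.6 in cells with 20 or more. Siglech ran from 0.1604 at a sum of 0 to 15.9 at 20 or more, and Cd300c2 from 0.0495 to 4.93. Sla had the smallest relative rise, from 0.0752 to 1.39 transcripts per cell. No step appeared at the gate. Any transcript of Trem2 was found in 76.0% of gated cells, of Siglech in 78.2%, of Cd68 in 63.8%, of Cd300c2 in 47.3%, of Spi1 in 43.4%, of Ikzf1 in 42.0% and of Sla in 26.6%. With each cell thinned to 100 transcripts, which left out 1689 shallower cells, those shares were 47.7%, 50.1%, 35.4%, 25.4%, 21.0%, 21.6% and 10.9% in the same order.

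The gated cells were then divided by Siglech. Siglech-positive cells, with at least 1 Siglech transcript, numbered 39071, and Siglech-zero cells 10896. The Siglech-zero share averaged 21.8% ± 1.1 of gated cells (SD, n = 7 sections) and ran from 20.8% to 24.0%. It followed the gate sum, with 38.6% at a sum of 3, 28.02% at 4, 16.5% at 5 to 9, 5.45% at 10 to 19 and 1.33% at 20 or more. The mean gate sum was 8.54 in Siglech-positive cells and 4.41 in Siglech-zero cells, while the median total was close, at 370 transcripts in Siglech-positive cells and 359 in Siglech-zero cells.

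All 6 genes that had no part in choosing the cells were higher in Siglech-positive cells. Trem2 had a lowest, median and highest section mean of 4.11, 4.50 and 4.74 transcripts per Siglech-positive cell, against 0.837, 0.907 and 0.9798 per Siglech-zero cell. Every section of the first kind stood far above every section of the second. The other receptor, Cd300c2, had 1.42, 1.49 and 1.67 transcripts per Siglech-positive cell and 0.342, 0.360 and 0.409 per Siglech-zero cell. For the lysosomal gene Cd68 the section means were 2.10, 2.34 and 2.52 in Siglech-positive cells and 0.844, 0.941 and 1.06 in Siglech-zero cells. The ratio between the groups was smaller than for the receptors, and the groups did not overlap. Spi1 had 0.963, 1.05 and 1.17 transcripts per Siglech-positive cell and 0.259, 0.310 and 0.321 per Siglech-zero cell. Ikzf1 had 1.06, 1.18 and 1.32 transcripts per Siglech-positive cell and 0.276, 0.305 and 0.379 per Siglech-zero cell. Both transcription factors thus separated the groups in all 7 sections. Sla had 0.435, 0.480 and 0.4997 transcripts per Siglech-positive cell and 0.171, 0.188 and 0.205 per Siglech-zero cell.

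**Figure D1:**
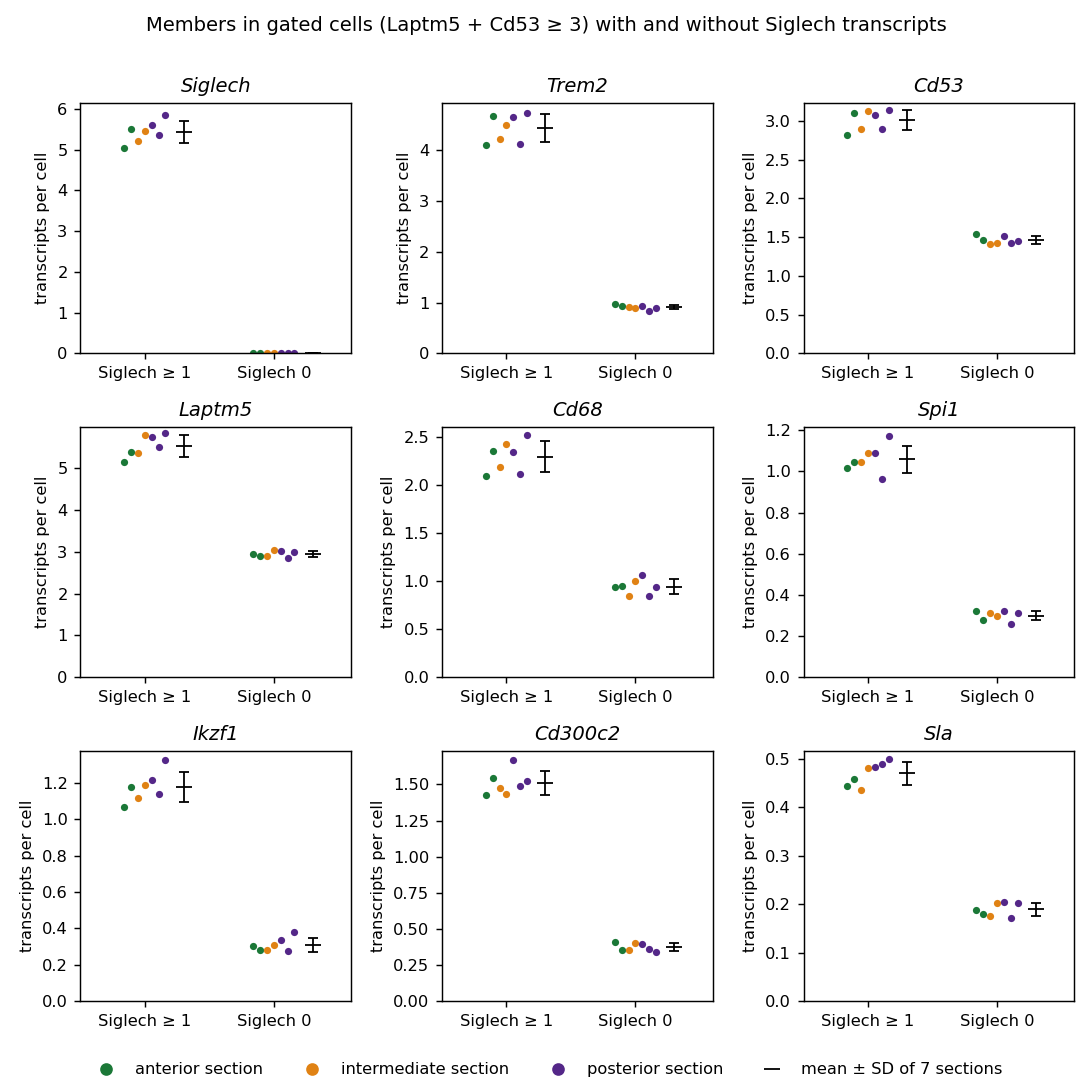
Transcripts per cell (y axis) of the 9 genes in gated cells with at least 1 Siglech transcript (left in each panel) and with none (right). Points are sections, coloured by position, and the bar with caps is the mean ± SD of the 7 sections. In the panels of Trem2, Cd300c2, Cd68, Spi1, Ikzf1 and Sla the 7 sections of Siglech-positive cells lie above the 7 of Siglech-zero cells; Siglech, Laptm5 and Cd53 chose the cells and are shown as a description.

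Counts were summed per section and kind of cell and tested with edgeR's quasi-likelihood test, with the section as a block and Benjamini-Hochberg adjustment over 297 genes. Trem2 was higher by 2.35 on the log2 scale (SE 0.030, 5.11-fold, adjusted p = 1.43e-19), and Cd300c2 by 2.08 (SE 0.043, 4.23-fold, adjusted p = 3.04e-17). Ikzf1 followed with 1.99 (SE 0.039), Spi1 with 1.89 (SE 0.036), Sla with 1.38 (SE 0.045) and Cd68 with 1.35 (SE 0.034). The highest of the 6 adjusted p-values was 2.02e-14, and all 6 were higher in 7 of 7 sections. The comparison called many genes: 183 of 297 (61.6%) passed an adjusted p of 0.05, 105 of them higher (35.4%) and 78 lower (26.3%), and the median log2 difference of all genes was 0.03. Scaling by library size in place of TMM, the trimmed-mean scaling used here, turned that split to 44 higher and 134 lower, with all 6 genes still called higher.

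The 6 differences shrank when the gate sum was matched in bins. For that purpose 10896 Siglech-positive cells were drawn to match the Siglech-zero cells in section, total (10 bins) and Laptm5 plus Cd53 (5 bins). The match was not exact: Laptm5 stayed higher in Siglech-positive cells in 7 sections, with section means of 3.02 to 3.21 against 2.84 to 3.04. Cd53 was higher in 1 section. Trem2 then averaged 2.12 ± 0.076 transcripts per matched Siglech-positive cell and 0.910 ± 0.045 per Siglech-zero cell (SD, n = 7 sections), a log2 difference of 1.25. The differences were 0.78 for Spi1, 0.76 for Cd300c2, 0.67 for Ikzf1, 0.40 for Sla and 0.31 for Cd68, all past the threshold by edgeR's test beside 170 of 296 genes called (57.4%), with 32.4% higher and 25% lower. Each of the 6 differences was thus smaller than without matching, and Trem2 moved least in proportion.

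Cells well above the gate gave a different order of the genes. A gate of 10, chosen after the data were seen, left 12081 cells, of which 504 (4.17%) had no Siglech transcript; their median totals were 357 transcripts in Siglech-positive cells and 288 in Siglech-zero cells. Trem2 had a lowest, median and highest section mean of 9.49, 9.86 and 10.7 transcripts in Siglech-positive cells, against 1.54, 1.66 and 1.96 in Siglech-zero cells. Its log2 difference of 2.16 was close to that at the lower gate. Spi1 (0.71), Cd300c2 (0.68) and Ikzf1 (0.36) were higher too. Cd68 averaged 4.98 ± 0.30 transcripts in Siglech-positive cells and 3.82 ± 0.44 in Siglech-zero cells, and relative to all transcripts its difference was 0.02 (adjusted p = 0.844). Sla averaged 1.01 ± 0.048 and 0.861 ± 0.13 transcripts, and its difference of -0.13 was not past the threshold (adjusted p = 0.362). By the same edgeR test 207 of 295 genes (70.2%) were called at this gate, 37.3% higher and 32.9% lower, and the median log2 difference of all genes was 0.19.

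Genes of vessels and meninges moved the opposite way from the 6 genes. By the rule for named genes, the 8 other genes that fell furthest in Siglech-positive cells were the smooth muscle genes Pln (-2.03) and Acta2 (-1.90), and the fibroblast and meningeal genes Fmod (-1.92), Col1a1 (-1.84), Aldh1a2 (-1.84), Dcn (-1.71), Igf2 (-1.69) and Cyp1b1 (-1.67), all on the log2 scale. Dcn, which encodes the matrix proteoglycan decorin, averaged 0.651 ± 0.086 transcripts per Siglech-positive cell and 2.23 ± 0.31 per Siglech-zero cell. Of the 12 fibroblast and meningeal genes listed, 12 were lower, and so were 13 of 15 endothelial genes and 4 of 6 mural genes, of which 1 was higher. The median log2 difference was -1.53 over the fibroblast list, -0.47 over the endothelial list and -0.69 over the mural list, against 0.03 over all genes. Summed over the fibroblast list, the level was 6.01 transcripts per Siglech-positive cell (4.63 to 6.99 over sections) and 14.5 per Siglech-zero cell (11.3 to 17.0), higher in the Siglech-zero cells in 7 of 7 sections. At the gate of 10 it was 5.36 transcripts in Siglech-positive cells and 38.4 in Siglech-zero cells. No gene of these lists was at 0 in either kind of cell, and transcripts of adjoining cells can fall within a cell's outline. Without the gated cells that held 5 or more vascular and fibroblast marker transcripts, a step added after the data were seen, the 6 genes were higher by 1.90 to 2.82 on the log2 scale, and 113 genes (38%) were called, 18.5% higher and 19.5% lower. Of 15 endothelial genes 8 were then higher and 0 lower (median 0.26), and of 6 mural genes 1 was higher and 0 lower (median 0.11). Of 12 fibroblast and meningeal genes 2 were higher and 2 lower (median 0.05), against a median of -0.02 over all genes. The markers that left cells out are themselves genes of these lists, so the step held them low in both kinds of cell. The change in these lists was thus set in part by the step and is given as a description.

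The 8 other genes that rose furthest were Ebf3 (1.62), Kctd12 (1.01), Arhgap25 (0.94), Eya4 (0.60), Marcks (0.59), Unc13c (0.47), Pkib (0.36) and Cabp7 (0.34). Kctd12, an auxiliary subunit of GABA-B receptors, averaged 6.57 ± 0.43 transcripts per Siglech-positive cell and 3.43 ± 0.22 per Siglech-zero cell. Marcks, a substrate of protein kinase C, averaged 14.5 ± 1.2 and 10.1 ± 0.80 transcripts in the same order. Of 20 other leukocyte genes listed, 7 were analysed here: Arhgap25, Orai2 (0.28) and Plekha2 (0.27) rose, and Spp1 (-1.11), Trbc2 (-0.60), Igf1 (-0.60) and Cd44 (-0.58) fell. The matched cells and the gate of 10 each gave 1 of the 7 higher and 5 lower. Plekha2 was then lower, by -0.13 in the matched cells (adjusted p = 0.0140) and by -0.60 at the gate of 10, while Orai2 was not called in the matched cells (adjusted p = 0.0608) and Arhgap25 (0.07, adjusted p = 0.538) was not called at the gate of 10. Spp1, which encodes osteopontin, also stood on the fibroblast list. The list's summed level was 3.15 transcripts per Siglech-positive cell and 3.07 per Siglech-zero cell at the gate of 3, and 4.48 and 7.43 at the gate of 10. Among other lists, 5 of 11 neuronal transmitter genes rose and 0 fell, 3 of 7 astrocyte genes rose and 0 fell, 3 of 7 oligodendrocyte lineage genes rose and 2 fell, and 1 of 4 activity-regulated genes rose and 1 fell. Their summed levels differed little at the gate of 3, with 23.3 transcripts of the neuronal list per Siglech-positive cell and 22.7 per Siglech-zero cell. At the gate of 10 the neuronal list summed to 18.98 and 9.38 transcripts in that order. The counts changed too: at that gate 6 of 10 neuronal genes tested were higher and 0 lower, 0 of 7 astrocyte genes higher and 2 lower, 3 of 7 oligodendrocyte lineage genes higher and 3 lower, and 2 of 4 activity-regulated genes higher and 0 lower. Without the cells of 5 or more vascular and fibroblast marker transcripts, 0 neuronal genes were higher and 2 lower, 2 astrocyte genes higher and 0 lower, 0 oligodendrocyte lineage genes called, and 0 activity-regulated genes higher and 3 lower. The part of neighbouring cells and of cell mixtures in these differences was not tested.

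The genes varied together from cell to cell among Siglech-positive cells far more than among Siglech-zero cells. Pearson's r of log(1 + count) was taken across cells within each section and averaged over the 7 sections, as a description, since the cells of a section share its depth and each pair shares the cell's size. Pairs of Laptm5 or Cd53 were left out of the summary because the gate used them. In Siglech-positive cells the 21 pairs of the other 7 genes ran from 0.361 (Spi1 and Sla) to 0.747 (Siglech and Trem2), with a median of 0.567. In Siglech-zero cells the 15 pairs of the 6 genes ran from 0.039 (Trem2 and Sla) to 0.325 (Cd68 and Cd300c2), with a median of 0.174, and the same 15 pairs had a median of 0.544 in Siglech-positive cells. The Siglech-zero cells had the lower gate sums given above. Over all gated cells the median of the 21 pairs was 0.563, and at the gate of 10 it was 0.366, with Siglech and Trem2 still at 0.721. In cells gated as neurons the 21 pairs had medians of 0.081 (Slc17a7) and 0.069 (Gad), and the lowest pair included Sla in both. The highest was Siglech and Trem2, at 0.254 and 0.266 in that order. Low counts and the removal of cells in the gate hold r down there. How far the genes vary together in neurons cannot be read from these values.

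**Figure D2:**
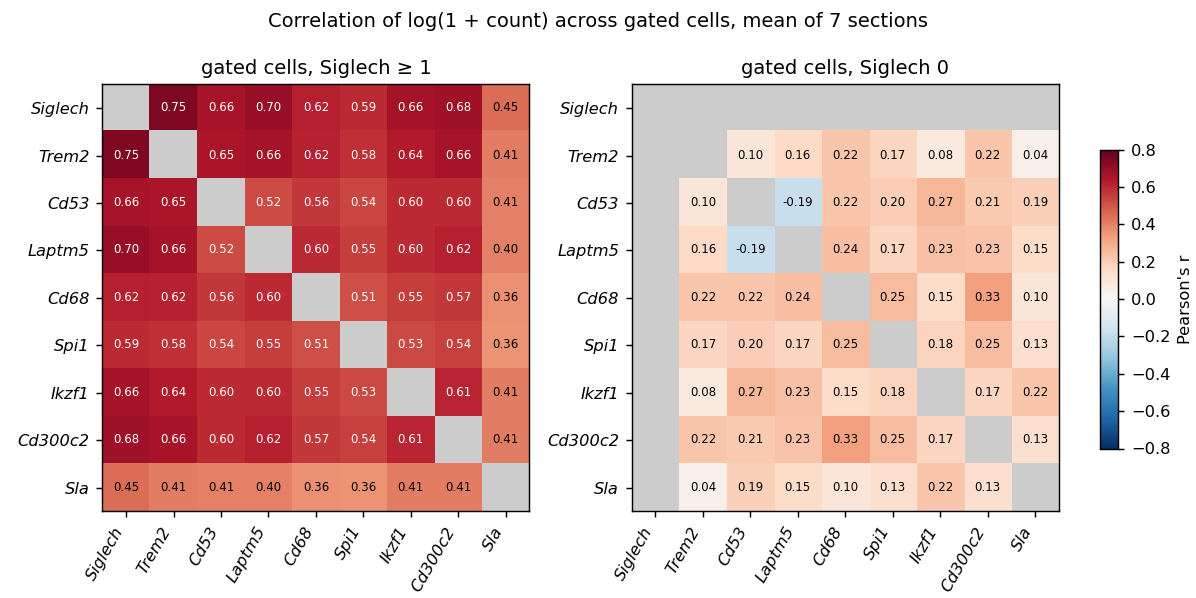
Pearson's r between pairs of the 9 genes across Siglech-positive gated cells (left) and Siglech-zero gated cells (right), each cell of the grid the mean of 7 sections, on log(1 + count). Grey marks the diagonal and the pairs with Siglech where it is 0 by choice. In Siglech-positive cells Siglech and Trem2 stand highest of the pairs without Laptm5 and Cd53, at 0.747; the negative value of Cd53 with Laptm5 on the right is set by the gate on their sum.

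Levels outside the gated cells were read in 9 classes set by marker genes. A class needed at least 5 transcripts of its markers, 3 times those of every other class, and fewer than 3 of Laptm5 and Cd53 together; 173955 cells outside the gated ones entered no class. Cells gated on Slc17a7, the vesicular glutamate transporter of cortical neurons, numbered 33229, with Rasl10a and Neurod6 among their leading genes outside the gate. Those gated on Slc17a6, the transporter of thalamic and other subcortical neurons, numbered 4530. Cells gated on Gad1 and Gad2, which make GABA, numbered 38831, with Sst, Pvalb and Ppp1r1b among their leading genes, and 28398 were gated on oligodendrocyte genes. Their median totals were 527 transcripts for Slc17a7-gated cells, 489 for Slc17a6-gated cells, 450 for Gad-gated cells and 153 for oligodendrocyte-gated cells.

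The 9 genes were below their level in gated cells in all 9 classes. Beside 0.894 transcripts per gated cell, Spi1 stood between 0.0395 and 0.0677 in all 9 classes, and beside 1.26, Cd300c2 stood between 0.0450 and 0.0775. Siglech ran from 0.0989 in fibroblast-gated cells to 0.301 in endothelial-gated cells, and Trem2 from 0.0932 in mural-gated cells to 0.262 in Slc17a7-gated cells. Neighbours in these orders overlapped between sections. Laptm5 and Cd53 were held low by the gate, at 0.178 to 0.291 and 0.0654 to 0.121 transcripts per cell. Per cell, Ikzf1 and Cd68 had their highest class level in Gad-gated cells, and Sla and Trem2 had theirs in Slc17a7-gated cells. Ikzf1 was at 0.112 ± 0.016 in Gad-gated cells and between 0.0314 and 0.0759 in the 6 classes that are not neurons, and its 7 sections of Gad-gated cells lay above those of the next class. Cd68 was at 0.322 ± 0.034 in Gad-gated cells and 0.281 ± 0.029 in Slc17a7-gated cells, against 0.168 to 0.241 in the classes that are not neurons, with overlap between sections. Sla was at 0.353 ± 0.068 transcripts per Slc17a7-gated cell, 86.0% of its level in gated cells, and between 0.0183 and 0.0394 in the other 8 classes. These orders are per cell and follow depth too, with median totals of 527 in Slc17a7-gated and 153 in oligodendrocyte-gated cells. Relative to all transcripts, Ikzf1 and Trem2 had their highest class level in oligodendrocyte-gated cells, and Cd68 in mural-gated cells. Sla stayed highest in Slc17a7-gated cells on that scale.

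**Figure D3:**
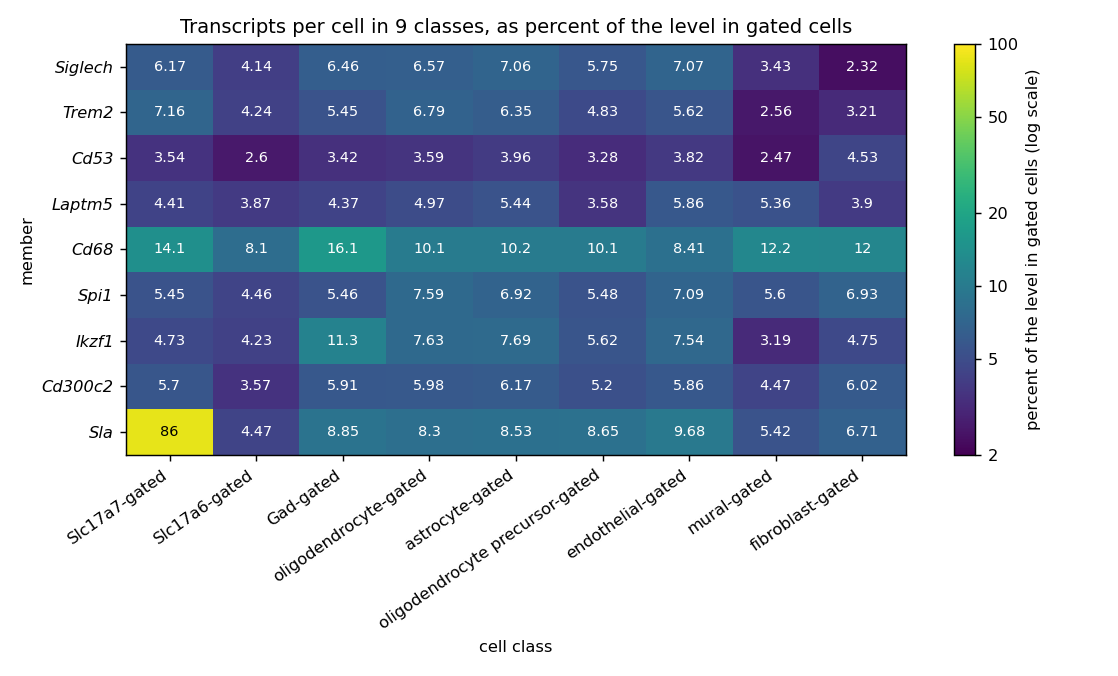
Level of each gene (rows) in 9 marker-gated classes (columns) as a percent of its level in gated cells, from transcripts per cell averaged over 7 sections, on a logarithmic colour scale with the value printed in each cell. Sla in Slc17a7-gated cells, at 86.0%, stands apart from the rest of its row and of the grid; the next highest value is that of Cd68 in Gad-gated cells, at 16.1%.

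The level of Sla went against its place among microglia and macrophage genes, since 1 class of neurons carried 86.0% as much per cell as the gated cells. That share depends on the gate and on depth. Sla was at 0.836 transcripts per cell at gate sums of 10 to 19 and at 1.39 at 20 or more. Relative to all transcripts, Sla was lower in Slc17a7-gated than in gated cells. Its lowest, median and highest section means were 0.262, 0.327 and 0.451 transcripts per Slc17a7-gated cell, against 0.0305, 0.0366 and 0.0413 per Gad-gated cell. In Slc17a6-gated cells they were 0.0102, 0.0202 and 0.0231. The Slc17a7-gated sections lay above all others without overlap. By edgeR's test with the section as a block, Sla was higher in Slc17a7-gated than in Gad-gated cells by 3.34 (log2, SE 0.10, 10.1-fold, adjusted p = 1.10e-18), beside 258 of 297 genes called (86.9%; 38.7% higher and 48.1% lower). Against Slc17a6-gated cells it was higher by 4.21 (SE 0.12, adjusted p = 3.68e-19), beside 251 genes called (84.5%; 40.4% higher and 44.1% lower), and against oligodendrocyte-gated cells by 1.89 (SE 0.098, adjusted p = 8.40e-15), beside 272 called (91.6%; 45.5% higher and 46.1% lower). Any Sla transcript was found in 18.5% of Slc17a7-gated cells, against 3.08% of Gad-gated cells and 3.07% of oligodendrocyte-gated cells, a class that should lack neuronal RNA. With cells thinned to 100 transcripts these shares were 5.97%, 0.636% and 1.78%. In cells without a single Laptm5 or Cd53 transcript, Sla kept 0.344 ± 0.071 transcripts per Slc17a7-gated cell, against 0.0285 ± 0.0043 per Gad-gated cell.

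Ikzf1 went the other way. Its section means were 0.0393, 0.0462 and 0.0607 transcripts per Slc17a7-gated cell (lowest, median and highest), against 0.0889, 0.110 and 0.132 per Gad-gated cell, with no overlap. The log2 difference was -1.20 (SE 0.14, adjusted p = 2.73e-08, edgeR). Slc17a6-gated cells also had less Ikzf1 than Gad-gated cells, by -1.40 (SE 0.16, adjusted p = 2.56e-08), beside 232 of 297 genes called (78.1%; 38% higher and 40.1% lower). Without any Laptm5 or Cd53 transcript, Ikzf1 stood at 0.0334 ± 0.0047 in Slc17a7-gated cells and 0.0948 ± 0.014 in Gad-gated cells. Control probes set an upper bound of 0.0413 counts per probe over all Slc17a7-gated cells, as described below. The level of 0.0334 and the lowest section mean of 0.0393 lay under it and were not shown to exceed background.

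Between Slc17a7-gated and Gad-gated cells the remaining genes differed less than Sla and Ikzf1. Trem2 was higher in Slc17a7-gated than in Gad-gated cells by 0.46 (adjusted p = 2.88e-04, edgeR), at 0.262 ± 0.019 and 0.199 ± 0.0083 transcripts per cell, and by 0.15 with library size in place of TMM (adjusted p = 0.153). Siglech (0.00), Cd300c2 (0.01), Spi1 (0.07) and Cd68 (-0.13) did not pass the threshold. This contrast depends on scaling, because the median log2 difference of all genes was -0.14 with TMM and -0.45 with library size; under library size Siglech (-0.31), Cd300c2 (-0.30), Spi1 (-0.24) and Cd68 (-0.44) were called lower. Slc17a7-gated cells had more Cd68 (0.80), Trem2 (0.76), Cd300c2 (0.69), Siglech (0.58) and Spi1 (0.31, adjusted p = 0.0187) than Slc17a6-gated cells, while Ikzf1 (0.21, adjusted p = 0.233) did not pass. Spi1 lost its call without anterior replicate 2 or posterior replicate 4, with an adjusted p of up to 0.112, and with library size (0.136). Slc17a6-gated cells in turn had less Cd68 (-0.93), Sla (-0.87), Cd300c2 (-0.67), Siglech (-0.58) and Trem2 (-0.30, adjusted p = 0.0181) than Gad-gated cells; Spi1 (-0.24, adjusted p = 0.0633) did not pass. Trem2 lost that call without intermediate replicate 2 or posterior replicate 4, with an adjusted p of up to 0.0685, and under stricter class gates (0.164). In both Slc17a6-gated and Gad-gated cells, Cd300c2, Sla and Spi1 lay below the bound from control probes, counted per cell (0.0797 and 0.0869 in that order). So did Ikzf1 in Slc17a6-gated cells. These levels were not shown to exceed background, and its part in the differences was not tested.

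Against oligodendrocyte-gated cells, the Slc17a7-gated cells had less of 6 of the 7 genes relative to all transcripts. By edgeR's test 272 of 297 genes (91.6%) were called in this contrast, 46.1% lower and 45.5% higher. The differences of the 6 genes were -2.17 for Ikzf1, -1.95 for Spi1, -1.56 for Siglech, -1.54 for Cd300c2, -1.40 for Trem2 and -1.01 for Cd68. Per cell the picture was another, because oligodendrocyte-gated cells held far fewer transcripts. Trem2 averaged 0.262 ± 0.019 transcripts per Slc17a7-gated cell and 0.248 ± 0.019 per oligodendrocyte-gated cell, and with the number of cells as the scale its difference was 0.08 (adjusted p = 0.444), that of Cd68 0.47 (adjusted p = 3.90e-05), and the median of all genes 1.51. Siglech averaged 0.263 ± 0.030 transcripts per Slc17a7-gated cell and 0.279 ± 0.019 per oligodendrocyte-gated cell. Control probes, which match no transcript of the tissue, gave 0.248 counts in all per Slc17a7-gated cell and 2.11 per oligodendrocyte-gated cell. Up to 6 different ones were seen in a cell, so the average over probes was at most 0.0413 counts per Slc17a7-gated cell. In oligodendrocyte-gated cells it was at most 0.352. A single probe can lie above such an average. All 7 genes were below the bound of 0.352 in oligodendrocyte-gated cells, so their levels there were not shown to exceed background. The part of background in these differences was not tested.

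The levels of Sla, Ikzf1, Cd68 and Trem2 also varied among neurons of 1 class. Slc17a7-gated and Gad-gated cells with at least 10 transcripts of a further gene were taken, a division chosen after the data were seen and given as a description. Levels are per cell and were not scaled to depth, which was not held equal between the divisions. Sla averaged 1.64 transcripts in Slc17a7-gated cells with Foxp2, 1.41 with Cplx3 and 1.21 with Rprm, which mark deep cortical layers. It was at 0.356 with Wfs1, 0.287 with Fezf2, 0.138 with Bdnf, 0.105 with Cux2, 0.0862 with Lamp5 and 0.0343 with Rorb, a gene of layer 4, a 47.8-fold range. The Rorb value, which sets that range, lay below the bound from control probes over all Slc17a7-gated cells (0.0413). It was not shown to exceed background, so the range is not a measured ratio of expression. In the 1662 cells with Foxp2 the section means of Sla were 1.38, 1.601 and 1.95 (lowest, median and highest), above every section mean of gated cells. Those cells kept 1.63 transcripts where Laptm5 and Cd53 were both 0.

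Ikzf1 varied 6.95-fold among Gad-gated cells. It was at 0.246 with Ppp1r1b, which encodes DARPP-32 of striatal projection neurons, 0.215 with Pdyn and 0.151 with Penk, both neuropeptide precursors of these neurons. It was at 0.0910 with Lamp5, 0.0786 with Sst, 0.0512 with Pvalb and 0.0354 with Vip, which mark interneurons. The levels with Sst, Pvalb and Vip lay below the bound from control probes over all Gad-gated cells (0.0869). They were not shown to exceed background, and the Vip value sets the 6.95-fold range. Among Slc17a7-gated cells Ikzf1 stayed between 0.0475 and 0.0649. In Gad-gated cells with Ppp1r1b (12211 cells) its section means were 0.203, 0.251 and 0.266, and the mean without any Laptm5 or Cd53 transcript was 0.229. Cd68 shared part of this order, with 0.671 transcripts in Gad-gated cells with Pdyn, 0.555 with Ppp1r1b, 0.504 with Penk and 0.168 with Pvalb. It was also at 0.730 in Slc17a7-gated cells with Wfs1 and 0.603 with Fezf2, and at 0.254 with Rorb. Trem2 reached 0.754 ± 0.17 in the 1215 Slc17a7-gated cells with Bdnf, 0.452 with Cux2 and 0.217 with Rprm, and 0.675 in the Bdnf cells without Laptm5 or Cd53 transcripts. Siglech, by contrast, ranged only from 0.253 to 0.362 among the Slc17a7-gated divisions.

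**Figure D4:**
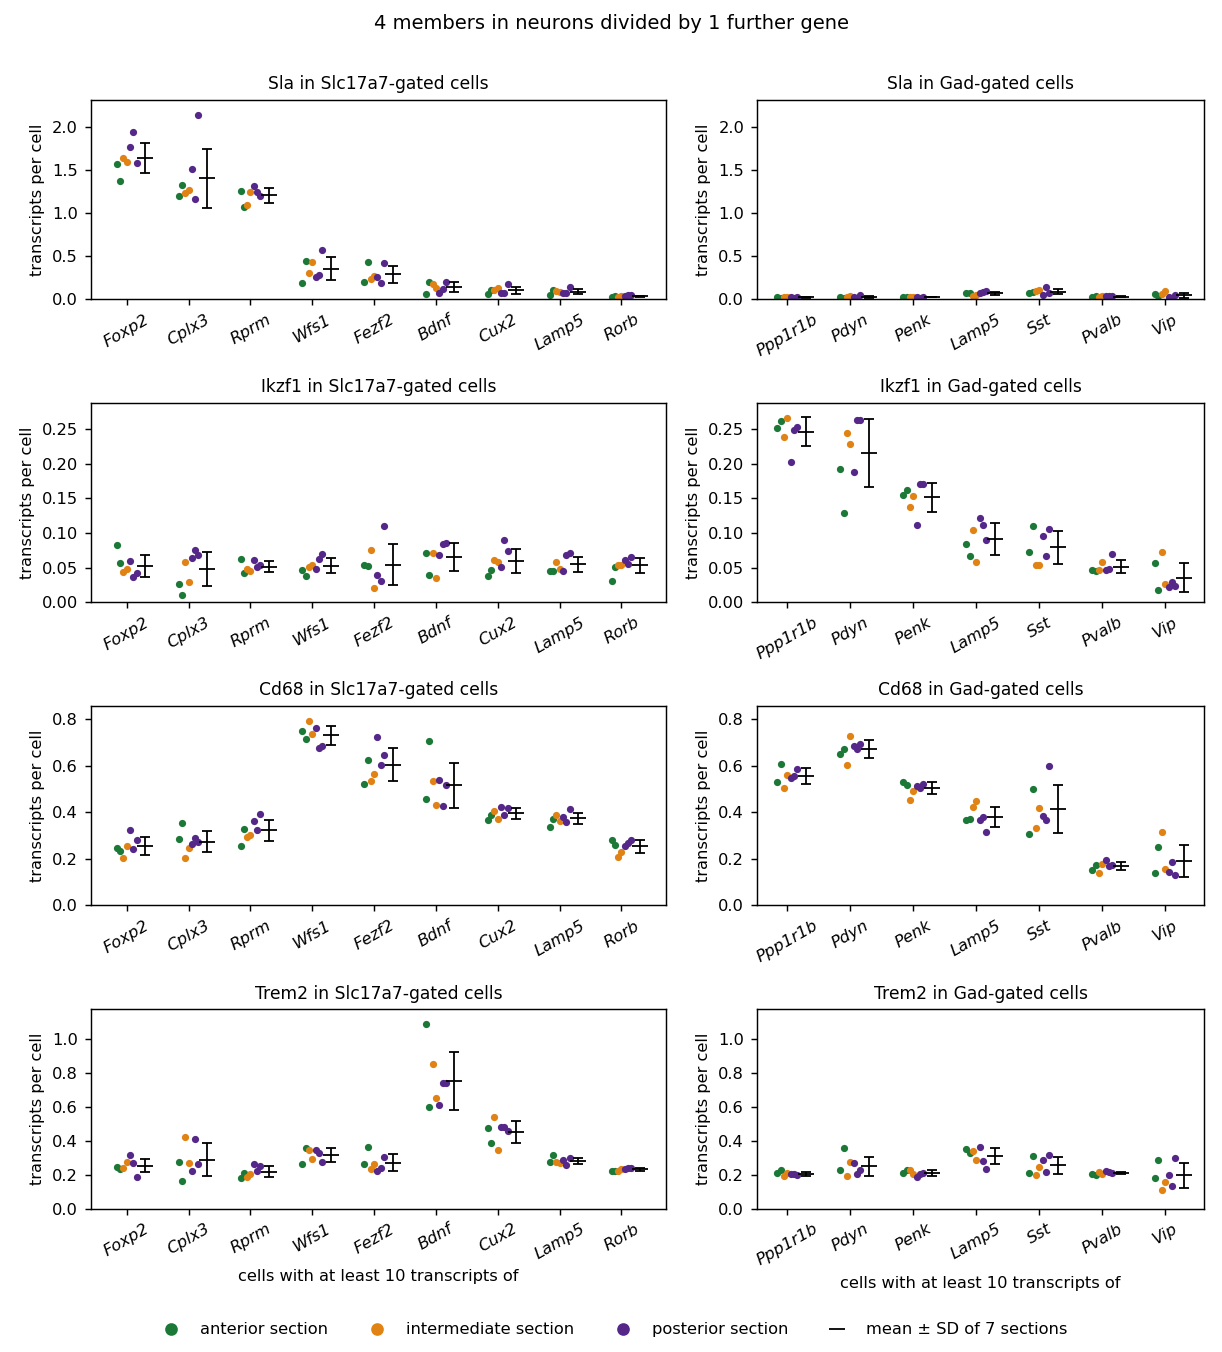
Transcripts per cell (y axes) of Sla, Ikzf1, Cd68 and Trem2 (rows) in Slc17a7-gated cells (left) and Gad-gated cells (right) that hold at least 10 transcripts of the gene named on the x axis. Points are sections, coloured by position, with the mean ± SD of 7 sections. Sla is high with Foxp2, Cplx3 and Rprm, Ikzf1 with Ppp1r1b, Pdyn and Penk, and Trem2 with Bdnf.

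Across single neurons, several of the dividing genes were among the closest neighbours of these genes. The correlations used the same counts in the same gated classes as the divisions, so they add no separate support. In Slc17a7-gated cells the counts of Sla correlated with those of Rprm (r = 0.442, mean of 7 sections), Nxph3 (0.415) and Foxp2 (0.392). In Gad-gated cells those of Ikzf1 went with Ppp1r1b (0.252), Pde7b (0.245) and Foxp1 (0.241), and those of Cd68 with Ppp1r1b and Anks1b (0.274 each). Trem2 in Slc17a7-gated cells had Tmem163 (0.183) and Nr2f2 (0.164) first. Across the 10 groups, the 9 classes and the gated cells, the level of Sla was most like those of Arhgap25 (Pearson's r = 0.951 on log2 levels), Myl4 (0.856) and Rasl10a (0.845). For the other 8 genes the most similar gene outside the 9 was Kctd12, and their likeness to one another was higher, up to 0.997 for Cd53 and Cd300c2, while Sla reached 0.635 to 0.775 with them. These groups share sections and depth, and the gated cells set much of that likeness.

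Between positions along the brain, the 9 genes differed by little beside the spread of the sections. Trem2 had 3.45 and 3.89 transcripts per gated cell in the anterior sections, 3.51 and 3.73 in the intermediate sections, and 3.76, 3.38 and 3.94 in the posterior sections, which overlap. Sla had 0.389 and 0.401 in the anterior, 0.378 and 0.420 in the intermediate, and 0.416, 0.417 and 0.438 in the posterior sections. Its posterior sections lay above its anterior ones, as did those of Laptm5, with 5.08, 4.90 and 5.24 posterior and 4.68 and 4.86 anterior transcripts per cell; for the other 7 genes posterior and anterior sections overlapped. Of all 297 genes, 122 (41.1%) did not overlap on this scale, 116 (39.1%) of them with the posterior sections higher, so 2 of 9 is no more than the background. Relative to all transcripts the differences were -0.07 for Sla and -0.08 for Laptm5, a gate gene given as a description. Relative to all transcripts of gated cells, edgeR called 1 of 297 genes between posterior and anterior sections (0.337%), the calcium-binding protein gene Cabp7 (0.83, adjusted p = 0.0468), and none with any 1 section left out, with library size or on slide 1 only. It called 0 of the 7 genes that the gate did not use, with log2 differences from -0.16 (Trem2, SE 0.058, adjusted p = 0.320) to -0.06 (Ikzf1, adjusted p = 0.753). Before adjustment 32 genes had a p under 0.05, 1 of them among the 7 (Trem2), and DESeq2 called 7 genes in all. Between intermediate and anterior sections 0 genes were called (0%), with 2 at an unadjusted p under 0.05 and 0 by DESeq2, and the 7 differences ran from -0.13 to -0.06.

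**Figure D5:**
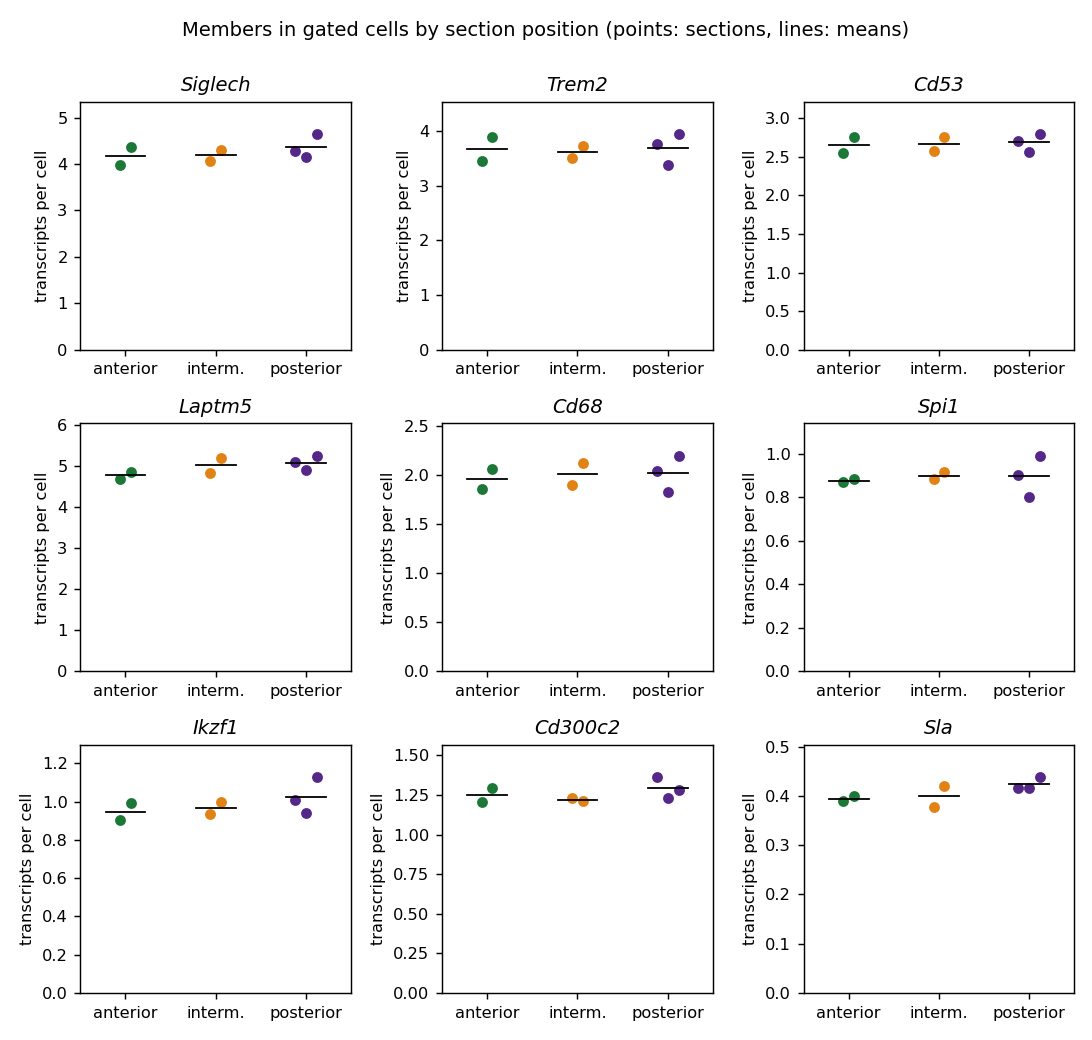
Transcripts per gated cell (y axes, from 0) of the 9 genes in anterior, intermediate and posterior sections (x axes). Points are sections and lines are the means of 2, 2 and 3 sections. Posterior and anterior points overlap for 7 of the 9 genes; those of Laptm5 and Sla do not, as for 41.1% of all genes.

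Summed over whole hemisections, with no gate, none of the 9 genes passed the test. Trem2 stood between 1644 and 1828 counts per 1000000 transcripts over the 7 sections, Siglech between 1996 and 2175, Spi1 between 397 and 463 and Sla between 318 and 351. Between posterior and anterior hemisections 0 of 297 genes passed edgeR's test (0%), with 33 at an unadjusted p under 0.05 and 14 called by DESeq2. For the 9 genes the log2 differences ran from -0.10 (Trem2, adjusted p = 0.565) to 0.02 (Sla, adjusted p = 0.974), with a largest SE of 0.10. In such sums, fewer cells of a type and less RNA per cell cannot be told apart.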

How the data were processed

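Xenium in situ transcript counts were analysed for 7 hemisections. The authors' deposited table holds whole-number counts per gene and segmented cell, not normalised, and its cell sums matched the deposited totals in 100% of 384076 cells. The submitters' processing notes name Seurat; for its version, for segmentation and for cell filters nothing is given in the sources used here. A deposited table of cells gives each cell's section and its counts of control probes and codewords. Of 297 symbols, 296 matched RefSeq. Doublets were not called, since outlined cells of a section are no droplets; an outline can take in transcripts of adjoining cells.

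Counts were summed per section and group of cells and tested in R 4.3.3 with edgeR 4.0.16, which uses limma 3.58.1: filterByExpr, TMM, the quasi-likelihood F test and Benjamini-Hochberg adjustment at 0.05 over all genes tested. Siglech and class comparisons had the section as a block, and position had none. The SE is the log2 difference divided by the square root of the F statistic. The tests were tested on simulated data. Levels are transcripts per cell, averaged over 7 sections with their SD. Sections were grouped by the position and replicate in the labels.

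The members, gates, lists and subclass divisions were chosen with earlier results of these data known. Genes outside the 9 are named by rule: the 8 largest differences each way by Siglech that held in 7 of 7 sections at 0.05 or more transcripts per gated cell, the most enriched (4 of 10 are given), the 3 most alike over classes (log2 of level plus 0.01), and list examples; subclass genes and neuron neighbours were added after their values were seen. Alternatives were DESeq2 1.42.0, scaling by library size or cell number, keeping low-count genes, other gates, matching, other blocks, 1 slide only, and leaving out each section. Python 3.11.15, numpy 2.4.6, pandas 2.3.3, scipy 1.17.1 and matplotlib 3.10.9 were used.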

Additional observations from a re-analysis of the deposited data

Results flagged for a closer look

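A section far from the other 6 was looked for in 111 groups of 7 section values, of which chance would give about 1 in 20, and 4 were found. Ikzf1 in Slc17a7-gated cells was 0.0607 transcripts per cell in posterior replicate 4, against 0.0393 to 0.0470 in the other sections. Sla in oligodendrocyte-gated cells was 0.0407 in intermediate replicate 2, against 0.0297 to 0.0341. Cd68 in mural-gated cells, a class of 412 cells in all, was 0.517 in anterior replicate 1, against 0.123 to 0.284. Cd300c2 in the same small class was 0 in posterior replicate 1, against 0.0462 to 0.0811.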

How the results depend on the processing

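The number of cells with no Siglech transcript depends on the gate: their share was 21.8% of gated cells at a sum of 3 and 11.1% at 5 (means of 7 sections). Siglech-positive against Siglech-zero cells gave 183 called genes, 163 to 181 with 1 section left out, 123 without the section block, and 113 without cells of 5 or more vascular and fibroblast marker transcripts. Of 96 values of the 6 members under 16 alternatives, 94 kept their direction and call; at a gate of 10 Cd68 (0.02) lost its call and Sla turned to -0.13. Position in gated cells gave 1 called gene, 0 with each section left out in turn, 0 with library size, on slide 1 only or with the replicate block, 7 by DESeq2, 5 at a gate of 5 and 2 with the second gate. Position in whole hemisections gave 0, 0 to 2 with a section left out (2 without posterior replicate 4), 14 by DESeq2 and 34 with the replicate block. Replicate numbers 1 and 2 occur in both positions, and the deviations of same-numbered sections correlated at 0.67 (gated) and 0.83 (whole), over 2 pairs that the labels do not tie to an animal. No member was called by position under any alternative tried. Slc17a7-gated against Gad-gated cells gave 258 genes (247 to 254 with a section left out); with library size Siglech (-0.31), Spi1 (-0.24) and Cd300c2 (-0.30) reversed. Against Slc17a6-gated cells it gave 251 (240 to 249), and Slc17a6-gated against Gad-gated cells gave 232 (223 to 234). Slc17a7-gated against oligodendrocyte-gated cells gave 272 (269 to 277), split 135 higher and 137 lower; with the number of cells as the scale the split was 195 to 69, Trem2 (0.083) and Cd68 (0.47) reversed, and the median of all genes was 1.51 in place of 0.03. Stricter class gates kept 64 of 81 class levels within 1 SD between sections; Sla in Slc17a7-gated cells was then 0.458. The causes were not tested. Low counts per cell, under 0.1 for several members outside gated cells, limit what single classes can show.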
